A study of Mus musculus with 6 samples.

Results

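Cells make cholesterol and fatty acids from acetyl-CoA, and the transcription factors SREBP1 and SREBP2 (genes Srebf1 and Srebf2) set the mRNA levels of the enzymes of both routes. The precursors of these factors sit in the endoplasmic reticulum bound to the escort protein Scap. When sterols are plentiful, the anchor proteins Insig1 and Insig2 hold Scap in place, and when sterols run low Scap carries the precursor to the Golgi apparatus, where proteases release the active factor. SREBP2 acts mainly on sterol enzymes and SREBP1 mainly on fatty acid enzymes, and Insig1 is itself an SREBP target. In pluripotent and early embryonic cells, dividing cells need both products for new membranes.

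The genes described here are the 35 listed members of this pathway, taken by symbol and found among the 50686 gene identifiers of the count files. They comprise 18 enzymes of the sterol route, 11 enzymes of fatty acid synthesis, elongation and desaturation, and 6 genes for regulators and sterol transfer. All 35 passed the filter on low counts, with means of 325 to 23060 counts per sample. Their choice did not depend on measured values, but it was made with earlier results of these data known. Me1 is a gene that the study itself singled out on these samples. The study also listed steroid biosynthesis among the pathways enriched in its downregulated genes. Counts of downregulated sterol enzymes below come from the same samples and add no independent evidence.

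The cells were mouse iPSCs reprogrammed from gingival fibroblasts and grown on SNL feeder cells, which were removed before embryoid bodies were formed. Embryoid bodies were treated with retinoic acid in all groups, to guide them towards immature mesenchymal cells, and plated on gelatin. The ICF group (3 samples) received intermittent compressive force of 1.5 g per square centimetre at 0.23 Hz for 24 h in serum-free medium. The control group (3 samples) stayed unloaded, and its medium is not stated separately in the sources used here. All cells derive from mouse gingival fibroblasts, the labels number the samples of each group as donors 1 to 3, here called replicates, and the methods speak of independent experiments, so the p-values measure the spread between these samples. Age, sex and strain are not given in the sources used here.

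Each sample held 28711166 to 34194413 counts on genes, and outside ICF replicate 3 the members were counted well above the noise of single reads. ICF replicate 3 stood apart. In that sample 89.0% of the counts above 0 were multiples of 4, against 20.3% to 21.5% elsewhere, and 20802 genes had a count, against 24340 to 24889. Its reads may each have been counted 4 times, which was not tested. Its 28869790 counts may therefore overstate its depth. Counts of the members and of their 2 enzyme groups are therefore also given without it, as are the lists whose counts changed when it was left out. Of the 16729 genes tested, 733 (4.38%) were downregulated and 580 (3.47%) upregulated by ICF at an adjusted p under 0.05 in edgeR's quasi-likelihood test.

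Pluripotency genes were abundant in every sample of these iPSC-derived cells, which had been treated with retinoic acid. Pou5f1, a core pluripotency factor, averaged 841 ± 57.2 CPM (SD, n = 3) unloaded and 817 ± 70.4 (SD, n = 3) under load, where CPM are read counts scaled to a common library size by the TMM method. Of 10 pluripotency markers, 2 were downregulated, Tdgf1 and Epcam, and their summed level was 3924 to 4667 CPM in the control and 3609 to 3934 with ICF. Among 10 markers of visceral endoderm, a lipid-secreting tissue of the early embryo, Amn and Sox17 were downregulated, and the summed level was 1234 to 1648 CPM in the control and 1364 to 1544 with ICF. Among 9 fibroblast or feeder cell markers, of which 8 were tested, Col1a1 and Col3a1 were upregulated, and the sums of 223 to 250 CPM in the control and 251 to 274 with ICF did not overlap. None of 5 adipocyte markers passed the filter, Lep was at 0 in all samples, and the sums lay between 0.212 and 0.522 CPM. Without ICF replicate 3, Epcam, Sox17 and Col3a1 did not pass (adjusted p = 0.063, 0.071 and 0.07, edgeR), and Col3a1 passed in 0, Epcam and Sox17 in 1, Col1a1 in 3, Amn in 4 and Tdgf1 in 6 of the 6 fits that left out 1 sample. With the replicate block, beside 15.3% of all genes lower and 14.6% higher, 4 pluripotency markers were lower, with Dppa5a and Utf1 added (adjusted p = 1.2e-05 and 0.0011, edgeR). In that fit 3 visceral endoderm markers were lower and 2 higher, with Apoa1 added to the first and Apob and Cubn making up the second, and 3 fibroblast markers were higher, with Col1a2 added. The part of these shifts in the results below was not tested. In such bulk samples, fewer cells of a type and less RNA per cell cannot be told apart.

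The sequence ahead of the genes was read to see what promoters of members called lower and members not called have in common. The table of RefSeq promoter windows on GRCm38.p6 (250 bases before to 50 after a start site) held 28 of the 35 members, in 37 windows. It held none for Fdps, Fdft1, Sqle, Scd1, Scd2, Fads1 and Stard4. The stretches below are the 150 bases that end just before the earliest annotated start, 5′ to 3′ on the gene's strand, for 5 downregulated genes (Hmgcs1, Lss, Me1, Srebf2 and Insig1), for Scap, the 1 member that was higher in every ICF sample, and for Insig2 and Ebp, whose levels lay within 0.03 of the control on the log2 scale. Capitals mark the sterol response element TCACNCCAC, the E-box CACGTG or the CCAAT box, on either strand, so that ATTGG is a CCAAT box on the other strand.
Hmgcs1, chr13:119690201-119690350, plus strand: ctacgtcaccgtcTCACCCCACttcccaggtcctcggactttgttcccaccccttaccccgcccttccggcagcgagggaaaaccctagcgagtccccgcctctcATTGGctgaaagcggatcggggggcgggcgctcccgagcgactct
Lss, chr10:76531438-76531587, plus strand: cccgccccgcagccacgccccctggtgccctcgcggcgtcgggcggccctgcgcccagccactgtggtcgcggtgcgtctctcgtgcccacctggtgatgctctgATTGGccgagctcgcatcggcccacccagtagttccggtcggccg
Me1, chr9:86695954-86696103, minus strand: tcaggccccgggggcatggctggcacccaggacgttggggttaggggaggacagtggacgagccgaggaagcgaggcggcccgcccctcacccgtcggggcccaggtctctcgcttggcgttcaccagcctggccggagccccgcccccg
Srebf2, chr15:82147031-82147180, plus strand: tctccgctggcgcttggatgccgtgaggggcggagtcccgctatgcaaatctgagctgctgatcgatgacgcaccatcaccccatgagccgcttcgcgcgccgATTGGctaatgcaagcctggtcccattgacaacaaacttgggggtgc
Insig1, chr5:28071213-28071362, plus strand: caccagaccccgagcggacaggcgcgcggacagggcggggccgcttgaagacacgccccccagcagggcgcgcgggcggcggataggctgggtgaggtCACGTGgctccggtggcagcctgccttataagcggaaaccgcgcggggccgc
Insig2, chr1:121332590-121332739, minus strand: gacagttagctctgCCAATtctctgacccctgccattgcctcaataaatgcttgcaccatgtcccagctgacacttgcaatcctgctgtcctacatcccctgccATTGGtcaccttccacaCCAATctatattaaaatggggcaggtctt
Scap, chr9:110333138-110333287, plus strand: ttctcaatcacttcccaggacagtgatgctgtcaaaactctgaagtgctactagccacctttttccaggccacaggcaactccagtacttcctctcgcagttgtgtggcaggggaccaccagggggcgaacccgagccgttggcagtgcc
Ebp, chrX:8193513-8193662, minus strand: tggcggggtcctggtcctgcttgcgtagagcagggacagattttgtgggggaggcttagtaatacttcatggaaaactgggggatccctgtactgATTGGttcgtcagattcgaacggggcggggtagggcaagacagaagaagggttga

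The stretches of Me1 and Scap held none of these letters, and the matches counted for these genes, a CCAAT box for Me1 and an E-box for Scap, lie outside them. The CCAAT box, bound by NF-Y, which often acts beside SREBP, was found in 23 of the 28 members, or 82.1%, against 43.1% of the 11642 tested genes with a window and 41.1% of all genes in the table. By window, 64.9% of the 37 member windows and 37.4% of all windows held it. It was present in 13 of 14 members called lower and in 10 of 14 that were not, Insig2 and Ebp among them. Members not called also include genes such as Mvd and Fasn, whose ICF samples were all below the control samples. The 2 groups are therefore not changed genes against unchanged ones. The E-box was found in 6 members (21.4%) against 11.4% of tested genes. The sterol response element in this spelling was found only in Hmgcs1 among the 28 members, against 1.45% of tested genes. Looser spellings of that element that share its letters, TCANNCCAC, CACNCCAC and TCACNCNAC, were found in 3, 3 and 2 members and in 4.51%, 7.84% and 3.31% of tested genes. These are matches of letters in short windows, and a window without them says nothing of elements elsewhere.

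Across the 35 members, 20 were downregulated by ICF and 0 upregulated in edgeR's quasi-likelihood test, beside 4.38% and 3.47% of all tested genes. In DESeq2 these counts were 27 and 0, beside 6.63% and 5.64% of all genes. At an unadjusted p under 0.05 in the edgeR test, 29 were lower and 1, Scap, was higher. The fitted change was below 0 in 33 of 35, with a median log2 fold change of -0.36, beside 0.00 over all genes tested, where 49.6% were below 0. In 31 members every ICF sample was lower than every control sample, which held for 15.7% of tested genes, and in 1 every ICF sample was higher, which held for 15.6%. The plot of all samples by member shows this separation gene by gene.

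**Figure D1:**
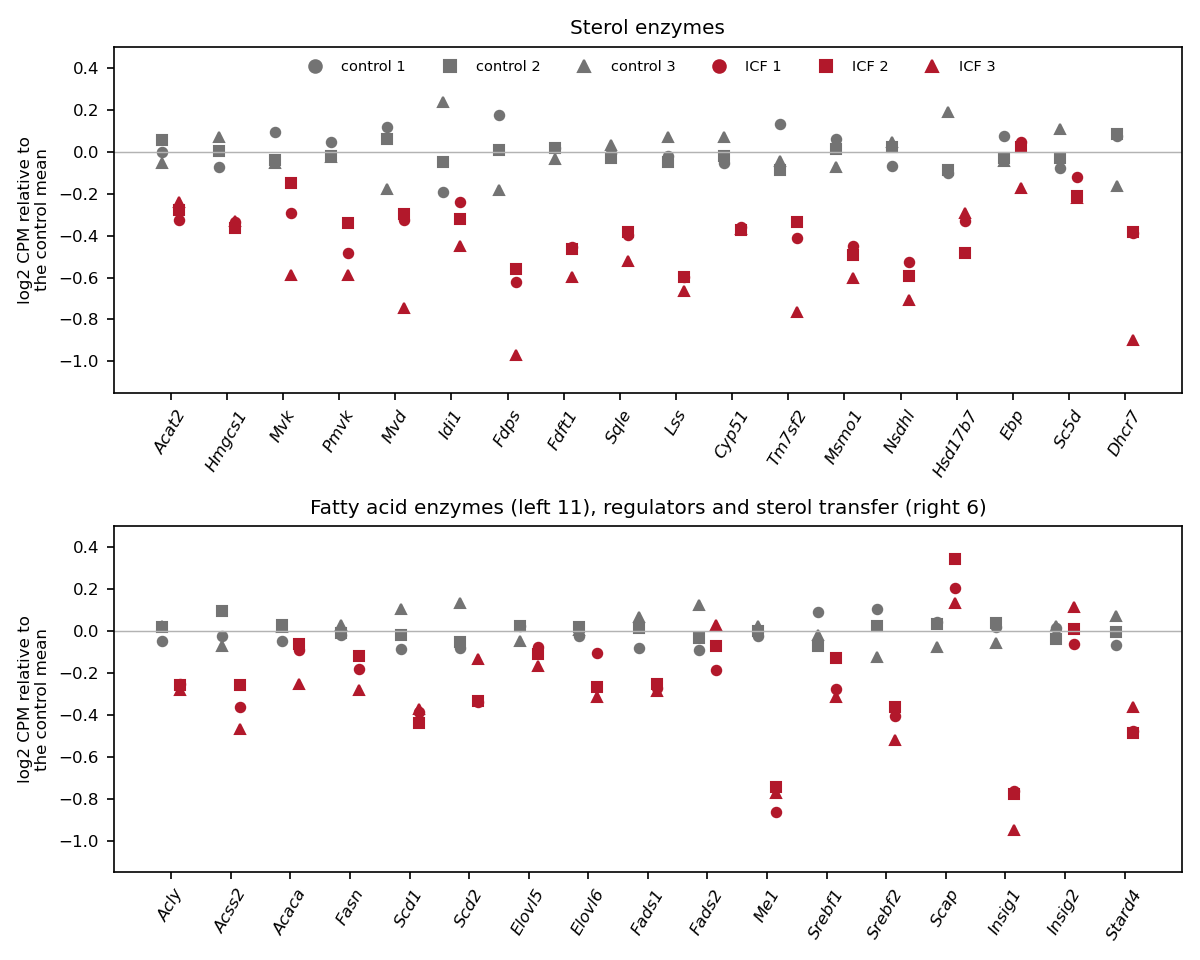
Level of each member in each of the 6 samples, as log2 CPM relative to the gene's control mean (y axis), with genes along the x axis. Grey symbols are control and red symbols ICF, with circles, squares and triangles for replicates 1, 2 and 3. Red symbols lie below all grey ones in 31 of the 35 genes and above them in Scap.

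With the replicate number as a block, 29 members were downregulated and 1 upregulated, beside 15.3% and 14.6% of all tested genes. Without ICF replicate 3 the counts were 20 and 1, beside 4.52% and 3.73% of tested genes. The number of downregulated members was 11 without control replicate 1, beside 1.46% of tested genes, and 9 without control replicate 2, beside 1.26%. It was 21 without control replicate 3, beside 5.45%. It was 10 without ICF replicate 1 and 13 without ICF replicate 2, beside 1.70% and 2.05%. Calls over all genes thus fell in the same 4 fits in which the members' calls fell. The 9 members past the threshold in each of the 6 fits that left out 1 sample were Fdft1, Sqle, Lss, Cyp51, Msmo1, Nsdhl, Me1, Insig1 and Stard4.

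The sterol route begins with the condensation of acetyl-CoA units and runs through mevalonate to farnesyl diphosphate. Of these 7 enzymes, Acat2, Hmgcs1, Pmvk and Fdps were downregulated, and Mvk, Mvd and Idi1 did not pass the threshold. Hmgcs1 encodes HMG-CoA synthase, which makes the substrate of mevalonate formation, and was the most abundant of them per kilobase. Its level was 377, 398 and 417 CPM in control replicates 1 to 3 and 315, 309 and 316 in ICF replicates 1 to 3, an order kept for all genes below. The groups did not overlap, and the log2 fold change was -0.34 ± 0.04 (SE, adjusted p = 0.011, edgeR). Acat2, a thiolase that joins acetyl-CoA units, was at 145, 151 and 140 CPM in control samples and 116, 120 and 123 in ICF samples. All ICF values were lower, and its log2 fold change was -0.28 (adjusted p = 0.025, edgeR). For Acat2, 40.7% of all 75-base stretches in its longest transcript are also found in other genes, mostly its copy Acat3, so its count is uncertain.

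Pmvk encodes phosphomevalonate kinase, and its level was 59.7, 56.9 and 56.8 CPM in control samples and 41.4, 45.7 and 38.5 in ICF samples. The fall was 0.46 on the log2 scale, well outside the spread of either group (SE 0.08, adjusted p = 0.01, edgeR). Fdps, which encodes farnesyl diphosphate synthase at the point where the isoprenoid and sterol routes part, had the largest fall of the sterol enzymes and the lowest mean count of all members. It was at 14.7, 13.1 and 11.5 CPM in control samples and 8.46, 8.84 and 6.66 in ICF samples, a log2 fold change of -0.71 ± 0.16 (SE, adjusted p = 0.02, edgeR). Its reads can also fall on Gm43738, which overlaps it on the same strand and holds 9.24% of the possible reads.

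The kinase Mvk and the decarboxylase Mvd had log2 fold changes of -0.33 and -0.45, with adjusted p-values of 0.1 and 0.063 in the edgeR test, and the isomerase Idi1 had -0.34 with an adjusted p of 0.12. The groups of each did not overlap. With the replicate block their adjusted p-values were 4.0e-04, 4.1e-08 and 0.0052 in edgeR. Mvd was at 130, 125 and 106 CPM in control samples and 95.7, 97.7 and 71.5 in ICF samples, and replicate 3 was the lowest of each group. For Idi1, 20.7% of the possible reads occur in other genes. The calls of Acat2, Hmgcs1, Pmvk and Fdps each ended without 3 or 4 of the 6 samples in turn, with adjusted p-values up to 0.14, 0.072, 0.061 and 0.1. They ended without control replicate 2 and ICF replicate 1 for each of the 4, without control replicate 1 for Acat2, Pmvk and Fdps, and without ICF replicate 2 for Acat2 and Hmgcs1. Without control replicate 3, Mvd passed with an adjusted p of 0.037 in the edgeR test.

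The 3 enzymes that commit the route to sterols, from farnesyl diphosphate to lanosterol, were all downregulated. Fdft1 encodes squalene synthase, and its level was 205, 205 and 198 CPM in control samples and 148, 147 and 134 in ICF samples. Sqle encodes squalene epoxidase, a rate-controlling step of the route, and was at 222, 218 and 228 CPM in control samples and 169, 171 and 155 in ICF samples. Lss closes the rings to form lanosterol, is found at chr10:76531588-76557138 (GRCm38, plus strand), and was at 155, 152 and 165 CPM in control samples and 104, 104 and 99.3 in ICF samples. In each of the 3 genes the lowest control sample was far above the highest ICF sample. Their log2 fold changes were -0.50, -0.43 and -0.62, each with a standard error of 0.04 or 0.05 and adjusted p-values of 0.0027, 0.0048 and 0.00083 in the edgeR test. Fdft1 overlaps Ctsb, which lies on the opposite strand and shares 19.3% of its possible reads, and the libraries were strand-specific.

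After lanosterol, 5 of the 8 enzymes were downregulated. Cyp51 encodes the demethylase that acts first on lanosterol, with 224, 229 and 244 CPM in control samples and 181, 179 and 180 in ICF samples. Msmo1 and Nsdhl, which act in the removal of the methyl groups at carbon C4, fell by 0.52 and 0.61 on the log2 scale (adjusted p = 0.0028 and 0.0021, edgeR). Msmo1 was at 244, 236 and 222 CPM in control samples and 171, 166 and 154 in ICF samples. Nsdhl was at 64.1, 68.1 and 69.2 CPM in control samples and 46.6, 44.5 and 41.1 in ICF samples. The values of both genes were tightly grouped in each condition, as were those of Cyp51, whose log2 fold change was -0.37 (adjusted p = 0.0069, edgeR).

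Tm7sf2 and Dhcr7 encode sterol reductases, the second of which makes cholesterol in the last step of the Kandutsch-Russell branch. Tm7sf2 was at 35.9, 30.8 and 31.8 CPM in control samples and 24.6, 26.0 and 19.3 in ICF samples, and Dhcr7 at 126, 127 and 107 CPM in control samples and 91.4, 91.9 and 64.3 in ICF samples. In both genes ICF replicate 3 was far below the other ICF samples. Their log2 fold changes were -0.49 and -0.54, with adjusted p-values of 0.041 and 0.046 in the edgeR test, and without ICF replicate 3 they were -0.37 and -0.38, with 0.039 and 0.026. Their calls ended without control replicate 1, control replicate 2, ICF replicate 1 or ICF replicate 2, with adjusted p-values up to 0.17 for Tm7sf2 and 0.18 for Dhcr7.

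The remaining enzymes after lanosterol did not pass the threshold. Hsd17b7, a keto reductase, had a log2 fold change of -0.37 (adjusted p = 0.064, edgeR) and Sc5d, a desaturase, -0.19 (adjusted p = 0.14, edgeR), and with the replicate block their adjusted p-values were 4.9e-04 and 0.017 in edgeR. Ebp, an isomerase that moves a ring double bond, was at 49.7, 46.2 and 45.7 CPM in control samples and 48.7, 47.9 and 41.8 in ICF samples. Its groups overlapped, and the log2 fold change was -0.03 ± 0.08 (SE, adjusted p = 0.84, edgeR). With the replicate block Ebp did not pass in edgeR, and Ebp, Idi1 and Sc5d did not in DESeq2 (adjusted p = 0.82, 0.055 and 0.064).

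Over the whole sterol arm, 12 of 18 enzymes were downregulated, beside 4.38% of all tested genes. All 18 log2 fold changes were below 0, from -0.71 to -0.03. The median was -0.34 for the steps up to farnesyl diphosphate, -0.50 from there to lanosterol and -0.43 after lanosterol. The summed level of the 18 enzymes was 2207, 2210 and 2212 CPM in control samples and 1698, 1693 and 1570 in ICF samples. Enzymes of each of these 3 stages passed the threshold. Between samples of the same number, the median difference was -0.42, -0.36 and -0.56 on the log2 scale for replicates 1, 2 and 3. In replicate 3, 16 of the 18 enzymes had their lowest difference, beside 5970 of the 16729 tested genes and 7 of the 11 fatty acid enzymes. Over all tested genes the SD of such differences was 0.46, 0.45 and 0.64, so replicate 3 was also the widest in general. Without ICF replicate 3, 12 enzymes were downregulated, beside 4.52% of tested genes, and the median log2 fold change was -0.37, against -0.44 with it. The number downregulated was 7, 6 and 6 without control replicate 1, control replicate 2 and ICF replicate 1. In these fits 1.46%, 1.26% and 1.7% of all tested genes were downregulated, so calls fell over all genes too.

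**Figure D2:**
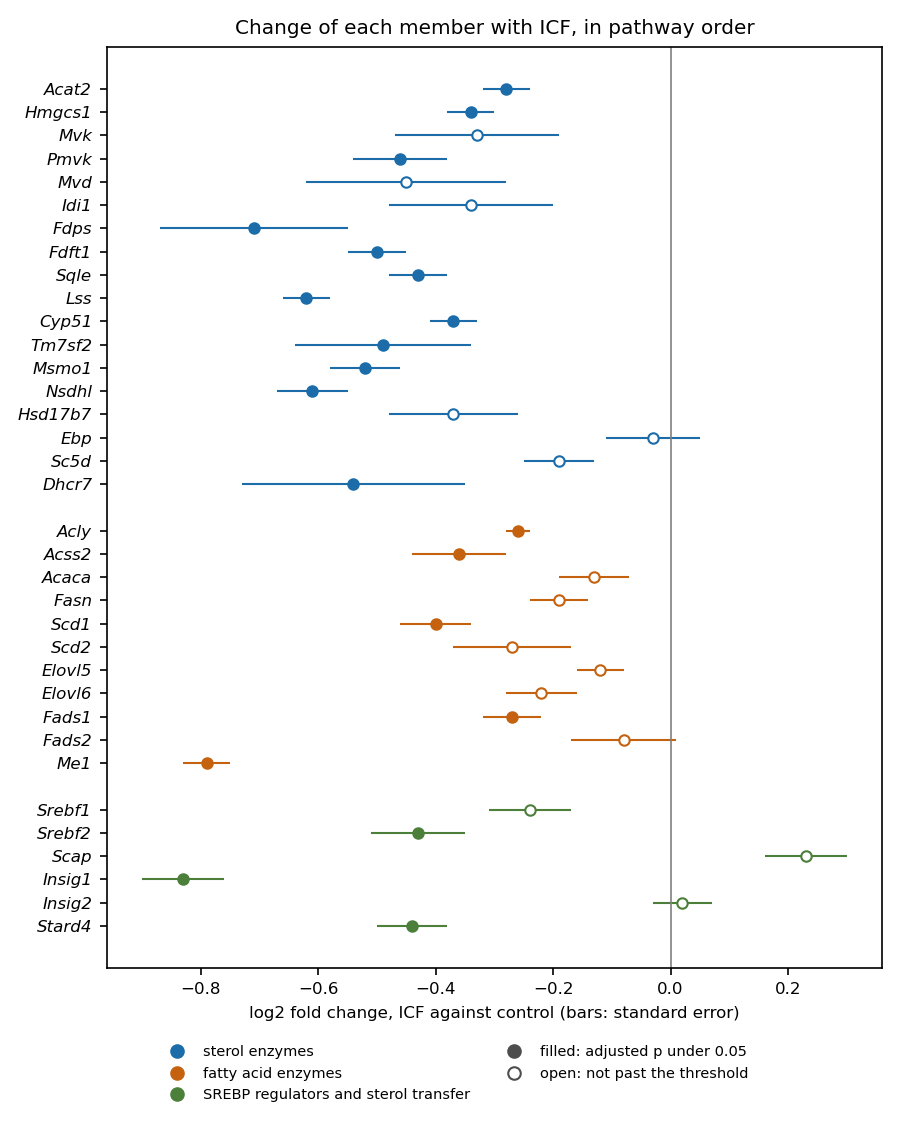
Log2 fold change of each member with ICF against control (x axis, bars are standard errors from the spread between 3 and 3 samples), with genes in pathway order down the y axis. Filled points passed an adjusted p of 0.05 in edgeR's test. The sterol enzymes reach from -0.71 to -0.03, and Me1 (-0.79) and Insig1 (-0.83) lie farthest to the left.

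In the fatty acid arm, 5 of 11 enzymes were downregulated, beside 4.38% of all tested genes. All 11 log2 fold changes were below 0, from -0.79 to -0.08 with a median of -0.26. When replicates were blocked, 8 were downregulated, beside 15.3% of all genes, and DESeq2 also gave 8, beside 6.63%. Without ICF replicate 3 the count was 5, beside 4.52% of tested genes, and the median was -0.25. The count was 2, 1, 2 and 2 without control replicate 1, control replicate 2, ICF replicate 1 and ICF replicate 2. In these fits 1.46%, 1.26%, 1.7% and 2.05% of all tested genes were downregulated, so calls fell over all genes too. The summed level of the 11 enzymes was 3070, 3156 and 3309 CPM in control samples and 2639, 2652 and 2661 in ICF samples. The medians of the arms were described here and their difference was not tested.

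Genes that supply acetyl-CoA and NADPH are at the head of this arm. Me1 encodes the cytosolic malic enzyme, a source of NADPH, and is found at chr9:86581371-86695953 (GRCm38, minus strand). It measured 125, 127 and 129 CPM in control samples and 69.7, 75.9 and 74.4 in ICF samples. No other enzyme of either arm fell as far, with a log2 fold change of -0.79 and a standard error of 0.04 (adjusted p = 0.00036, edgeR). Of its possible reads, 23.1% also occur in other genes, mostly Gm7049. Acly, which cleaves citrate to acetyl-CoA, was at 597, 625 and 627 CPM in control samples and 517, 515 and 507 in ICF samples. The difference was small but larger than the spread, with a log2 fold change of -0.26 and a standard error of 0.02 (adjusted p = 0.021, edgeR). Acss2 makes acetyl-CoA from acetate and was at 19.9, 21.6 and 19.2 CPM in control samples and 15.7, 16.9 and 14.6 in ICF samples. Its log2 fold change was -0.36 with an adjusted p of 0.049 in the edgeR test, close to the threshold.

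The enzymes that build the chain did not pass the threshold. Acaca, the carboxylase that forms malonyl-CoA, differed by -0.13 ± 0.06 (SE) on the log2 scale (adjusted p = 0.26, edgeR), and 47.4% of its possible reads also occur in Gm5182. Fasn, fatty acid synthase, averaged 676 ± 10.9 CPM (SD, n = 3) unloaded and 592 ± 33.1 (SD, n = 3) under load. The change of -0.19 on the log2 scale had an adjusted p of 0.086, and 0.0028 with the replicate block, both in edgeR. In both genes the groups did not overlap.

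Among the desaturases, Scd1 and Fads1 were downregulated. Scd1, a desaturase that makes oleate, was at 238, 249 and 271 CPM in control samples and 193, 186 and 195 in ICF samples. The log2 fold change was -0.40 ± 0.06 (SE, adjusted p = 0.0082, edgeR). Fads1, which acts on polyunsaturated fatty acids, was at 145, 155 and 161 CPM in control samples and 127, 129 and 126 in ICF samples, a log2 fold change of -0.27 (adjusted p = 0.03, edgeR). Both genes were lower in every ICF sample than in any control sample. Scd2, a close relative of Scd1 and the most abundant member per kilobase, was at 771, 788 and 896 CPM in control samples and 645, 648 and 745 in ICF samples. Its replicate 3 was the highest of both groups, and its log2 fold change of -0.27 had an adjusted p of 0.081, which was 3.6e-05 with the replicate block and 0.032 without ICF replicate 3, all in edgeR.

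Elovl6 and Elovl5, which lengthen fatty acids, had log2 fold changes of -0.22 and -0.12 with adjusted p-values of 0.076 and 0.23, and with the replicate block 0.001 and 0.07, in edgeR. Fads2, the desaturase ahead of Fads1 in the polyunsaturated route, had -0.08 (SE 0.09, adjusted p = 0.6, edgeR), and its groups overlapped. In 4 of the 6 fits that left out 1 sample, fewer calls were made in this arm and over all genes, while over the 6 fits the log2 fold changes ran from -0.29 to -0.25 for Acly, -0.31 to -0.24 for Fads1 and -0.41 to -0.31 for Acss2. Acly and Fads1 lost theirs without control replicate 1 or 2 or ICF replicate 1 or 2, with adjusted p-values up to 0.12 and 0.14, and Acss2 also without ICF replicate 3, with values up to 0.21. Scd1 lost its call without control replicate 2 (0.051, edgeR), and Me1 kept it in all 6 fits.

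Of the 6 genes for regulators and sterol transfer, 3 were downregulated, beside 4.38% of all tested genes. These were the regulators Srebf2 and Insig1 and the sterol carrier gene Stard4, and the median log2 fold change of the 6 was -0.33. Without ICF replicate 3 the count was 3 downregulated and 1, Scap, upregulated, beside 4.52% and 3.73% of tested genes. Srebf2, the factor for sterol genes, was downregulated, with 333, 315 and 284 CPM in control samples and 234, 241 and 216 in ICF samples, and its log2 fold change was -0.43 ± 0.08 (SE, adjusted p = 0.012, edgeR). The call ended without control replicate 1, control replicate 2 or ICF replicate 1, with adjusted p-values up to 0.076. Srebf1 was at 109, 97.4 and 101 CPM in control samples and 84.6, 93.7 and 82.3 in ICF samples. The groups did not overlap, but the log2 fold change of -0.24 did not pass (adjusted p = 0.082, and 0.0016 with the replicate block, edgeR). Counts per gene do not separate the SREBP1a and SREBP1c forms.

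Insig1 had the largest fall of all 35 members. The gene is found at chr5:28071363-28078662 (GRCm38, plus strand) and measured 203, 206 and 193 CPM in control samples and 118, 117 and 104 in ICF samples. The mean fell by 43.7% (log2 fold change -0.83 ± 0.07 (SE), adjusted p = 0.00054, edgeR). Its relative Insig2 was at 26.3, 25.4 and 26.5 CPM in control samples and 25.0, 26.2 and 28.2 in ICF samples. The Insig2 groups overlapped, and the log2 fold change was 0.02 ± 0.05 (SE, adjusted p = 0.90, edgeR). The ratio of Insig1 to Insig2 in CPM was 7.7, 8.12 and 7.29 in control samples and 4.72, 4.47 and 3.69 in ICF samples.

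Scap was at 55.3, 55.0 and 51.0 CPM in control samples and 61.9, 68.2 and 59.0 in ICF samples, and it was the 1 member whose ICF samples were all above the control samples. The log2 fold change was 0.23 ± 0.07 (SE) and did not pass (adjusted p = 0.095, edgeR). It passed with the replicate block (0.003, edgeR) and without ICF replicate 3 (0.046, edgeR). The ratio of Scap to Insig1 in CPM was 0.273, 0.267 and 0.264 in control samples and 0.525, 0.583 and 0.567 in ICF samples. Over the 4 ratios compared, which also included Srebf2 to Srebf1 and Scd2 to Scd1, the groups overlapped in 0. With all Scap values higher and all Insig1 values lower under load, the ratio of these genes could not overlap. The ratios restate values of members given above, and no share over other gene pairs was computed, so this count adds no separate evidence. The means of Srebf2 to Srebf1 were 3.03 and 2.65 and those of Scd2 to Scd1 3.23 and 3.55, without and with load. An exact two-sided permutation test gave p = 0.1 for each ratio, also after adjustment over the 4, which is the smallest value that 3 samples against 3 allow. Stard4 encodes a protein that carries cholesterol between membranes, and it was downregulated from 87.1, 91.1 and 96.1 CPM in the control to 65.7, 65.2 and 71.1 with ICF (log2 fold change -0.44, adjusted p = 0.0065, edgeR).

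**Figure D3:**
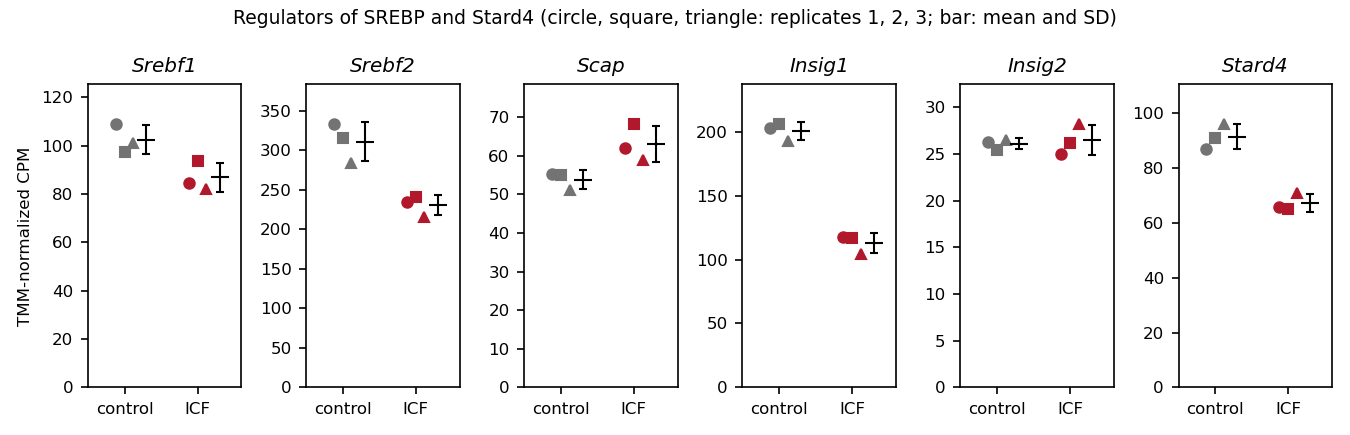
TMM-normalized CPM (y axis, from 0) of Srebf1, Srebf2, Scap, Insig1, Insig2 and Stard4 in 3 control and 3 ICF samples, with the mean and SD beside the points. Insig1 falls from 193 to 206 CPM down to 104 to 118, the ICF points of Scap lie above those of the control, and the Insig2 groups overlap.

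Levels of different genes were compared only per kilobase of all annotated exons of a gene, as RPKM computed from the CPM. In the control the members ranged from 1.99 RPKM for Acss2 to 150 for Scd2, with a median of 32.0. Acly (117), Hmgcs1 (86.6) and Insig1 (64.9) followed Scd2, and Fdps (3.12) and Hsd17b7 (4.55) were near the lower end. With ICF Insig1 was at 36.5 RPKM, and Scd2 (124) and Acly (97.2) were still the most abundant. Exon sums include rarely used isoforms, which lowers the RPKM of genes such as Acaca, whose exons sum to 17074 bases while its longest transcript has 9513.

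Neighbouring genes of lipid metabolism were read from 5 further lists. Among 10 genes for SREBP cleavage, degradation and DNA-binding partners, 1 was downregulated, and the median change was 0.02 on the log2 scale. That gene was Rnf145, a membrane ubiquitin ligase linked to sterol control, with 154, 154 and 146 CPM in control samples and 109, 107 and 113 in ICF samples (log2 fold change -0.46, adjusted p = 0.0027, edgeR). The proteases Mbtps1 and Mbtps2, which cleave the SREBP precursors, had log2 fold changes of -0.10 and -0.02 (adjusted p = 0.56 and 0.88, edgeR). Nfya, Nfyb and Nfyc, the subunits of the CCAAT-binding factor, lay between -0.02 and 0.06.

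Among 12 genes of the liver X receptors, cholesterol efflux, esterification and lysosomal export, 11 were tested and 1 was downregulated, and the median change was -0.16 on the log2 scale. It was Soat1, which esterifies cholesterol for storage, with 161, 160 and 160 CPM in control samples and 125, 117 and 137 in ICF samples (log2 fold change -0.34, adjusted p = 0.019, edgeR). With the replicate block 5 of these 11 genes were downregulated, beside 15.3% of all genes. The efflux pumps Abca1 and Abcg1, targets of the liver X receptors, had log2 fold changes of 0.18 and 0.22 (adjusted p = 0.48 and 0.27, edgeR). Of 12 enzymes that use mevalonate products for ubiquinone, dolichol and protein prenylation, 0 passed in edgeR and 0 in DESeq2, 0 had an unadjusted p under 0.05 in edgeR, and their median was 0.00. With the replicate block 1 of the 12 was upregulated, beside 14.6% of all genes.

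Of 22 other genes of fatty acid synthesis, activation and elongation, 20 were tested and 2 were downregulated, and the median change was -0.16. They were Slc25a1, which exports citrate from mitochondria, and Acsl1, which activates long-chain fatty acids. Slc25a1 was at 148, 141 and 127 CPM in control samples and 108, 106 and 85.9 in ICF samples (log2 fold change -0.47, adjusted p = 0.024, edgeR). Acsl1 had a log2 fold change of -0.40 (adjusted p = 0.019, edgeR). With replicates blocked, 7 of the 20 were downregulated and 3 upregulated, beside 15.3% and 14.6% of all genes, so the upregulated share was close to the background. Without ICF replicate 3, 2 were downregulated and 1, the elongase Elovl4, was upregulated (adjusted p = 0.034, edgeR). Of 16 genes listed under fatty acid oxidation, 14 were tested and 2 were upregulated, with a median of 0.02. These were Cpt1c and Cpt1a, both named as carnitine palmitoyltransferases, and enzyme activity was not measured. Cpt1c was at 46.4, 44.1 and 42.8 CPM in control samples and 67.9, 70.8 and 74.0 in ICF samples. Cpt1a was at 22.6, 23.6 and 22.3 CPM in control samples and 30.0, 29.4 and 29.5 in ICF samples. Their log2 fold changes were 0.67 and 0.38 (adjusted p = 0.00095 and 0.015, edgeR). With the replicate block 1 of the 14 was downregulated and 3 were upregulated, beside the same 15.3% and 14.6%. In the fits that left out 1 sample, Rnf145 and Cpt1c passed in all 6, and Soat1, Slc25a1, Acsl1 and Cpt1a passed in 2 each, with adjusted p-values up to 0.096, 0.11, 0.1 and 0.085. Cpt1c, like Me1, is a gene the study singled out on these samples.

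**Figure D4:**
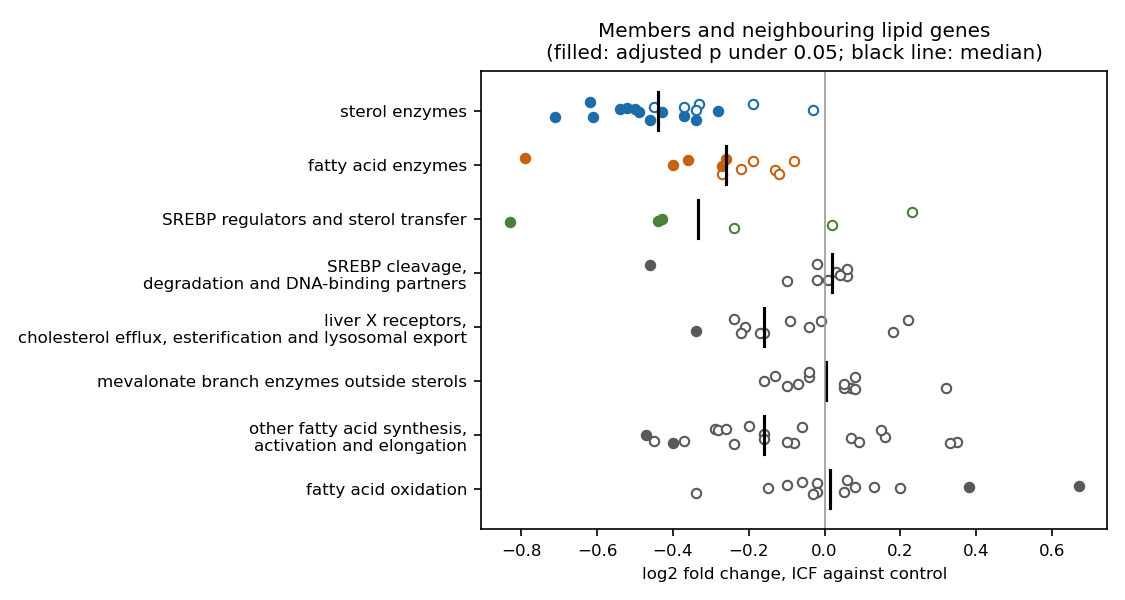
Log2 fold change of ICF against control (x axis) for each tested gene of the 3 groups of members and of 5 neighbouring lists (y axis), with filled points past an adjusted p of 0.05 and a black line at each median. The medians of the sterol and fatty acid enzymes are -0.44 and -0.26, and those of the neighbouring lists lie between -0.16 and 0.02.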

How the data were processed

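RNA sequencing measured 3 ICF and 3 control samples. The authors filtered reads with Trimmomatic, mapped them with HISAT2, counted them per gene with HTSeq and deposited raw counts. The processing notes name the builds hg38 and GRCm38, and the identifiers are mouse genes. HTSeq drops reads that align to several places, and 38.1% to 40.3% of the reads in the files were assigned to no gene and were left out. Of 50686 identifiers, 50462 were named through GENCODE M21 (GRCm38).

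Low counts were removed by group (filterByExpr), which left 16729 genes. These were scaled by TMM and tested by quasi-likelihood in edgeR (version 4.0.16, R 4.3.3), with p-values adjusted by Benjamini-Hochberg and called at 0.05. The scripts were first tested on simulated data. Standard errors (SE) of log2 fold changes were computed from the SD of log2 CPM in each group. Alternatives were DESeq2 1.42.0, RLE or total-count scaling, filters of at least 1 count in any sample or 10 in every sample, a replicate block with edgeR and with DESeq2, a division by 4 of all ICF replicate 3 counts, replicate 3 as a batch, both samples of replicate 3 left out, and each sample left out. Same-numbered samples, labelled as the same donor, deviated together with r of 0.15, 0.2 and 0.38 across genes (other pairs -0.34 to 0.26). Control replicate 1 went with ICF replicate 2 (0.26) more than with ICF replicate 1 (0.15). These values thus set apart replicate 3 only, and the pairing of replicates 1 and 2 rests on the labels. The main test used no pairing, and the replicate block is given as an alternative.

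The members and lists were chosen with earlier results of these data known. All members are named, and of every other list at most 3 genes past the threshold with the largest change, apart from Pou5f1, Lep, Dppa5a, Utf1, Apoa1, Apob, Cubn, Col1a2, Elovl4, Mbtps1, Mbtps2, Nfya, Nfyb, Nfyc, Abca1 and Abcg1, which were added for their roles or their calls in other fits after their values were seen.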

Additional observations from a re-analysis of the deposited data

How the results depend on the processing

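The medians of both arms stayed below 0 under all settings tried, from -0.48 to -0.37 for sterol enzymes and from -0.29 to -0.22 for fatty acid enzymes over the fits that left out 1 sample. No called member changed direction. The number of downregulated members ran from 9 to 21 with 1 sample left out and was 31 with replicate 3 as a batch. The number upregulated ran from 0 to 1 with 1 sample left out and was 1 with the replicate block in edgeR or DESeq2, with replicate 3 as a batch and with both samples of replicate 3 left out. Downregulated sterol enzymes ran from 6 to 13 and fatty acid enzymes from 1 to 5 with 1 sample left out. Fatty acid enzymes numbered 8 with DESeq2, with the replicate block in edgeR or DESeq2 and with both samples of replicate 3 left out, and 10 with replicate 3 as a batch. The replicate block brought 10 further members past the threshold and ended no call. Over all genes, downregulated and upregulated counts were 733 and 580 in the test reported, 1109 and 943 with DESeq2, 2561 and 2445 with the block, 1662 and 1457 with the block in DESeq2, 2876 and 2823 with replicate 3 as a batch, 2627 and 2466 without both samples of replicate 3, and 215 to 928 and 85 to 724 with 1 sample left out. With total-count scaling they were 641 and 745, and 2 members, Dhcr7 and Acss2, lost their calls, and the median of all genes was 0.03. Acaca and Elovl5, with changes of -0.13 and -0.12 on the log2 scale, did not pass in the unpaired test (adjusted p = 0.26 and 0.23, edgeR) or with the replicate block (0.068 and 0.07, edgeR), and passed with replicate 3 as a batch (0.041 and 0.031, edgeR), so their calls depended on how replicates were modelled.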
